A study of Homo sapiens with 10 samples.

Results

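A set of 10 genes of lipid droplet storage and lipolysis was read in RNA sequencing of LNCaP-C4-2 cells, a castration-resistant line derived from LNCaP prostate cancer cells. They were chosen by name, as rows of the count table of 57353 gene symbols. They were 3 triglyceride and glyceride lipases (PNPLA2, LIPE and MGLL), 3 regulators of PNPLA2 (ABHD5, G0S2 and HILPDA), 2 coat proteins (PLIN2 and PLIN3) and the 2 enzymes of the last step of triglyceride synthesis (DGAT1 and DGAT2). Of the 10, 7 passed the expression filter and were tested among 17230 genes, and LIPE, PLIN2 and G0S2 did not pass it.

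The study changed CPT1A, the enzyme of the outer mitochondrial membrane that commits long-chain fatty acids to oxidation. The knockdown arm compared 3 samples of cells with an shRNA lentivirus against CPT1A (KD) with 2 samples carrying a non-targeting control shRNA (NT), both selected with puromycin. The over-expression arm compared 3 samples of cells with a CPT1A cDNA lentivirus (OE) with 2 samples carrying the empty virus (EV), both selected with blasticidin. All 4 groups were the same parental line, grown in RPMI with fetal bovine serum and supplements of amino acids and insulin. The labels name no further treatment. Separate transductions were not described for the samples of a group, so p-values measure the spread between samples of 1 transduced line each, and an effect of CPT1A cannot be told apart from other differences between the lines.

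A lipid droplet is a core of triglyceride and sterol ester under a single layer of phospholipid and coat proteins. Triglyceride is made from diacylglycerol by DGAT1 or DGAT2 and is taken apart 1 fatty acid at a time, by PNPLA2 (also called ATGL), LIPE (hormone-sensitive lipase) and MGLL (monoacylglycerol lipase). ABHD5 (CGI-58) activates PNPLA2, while G0S2 and HILPDA bind and inhibit it, and the perilipins PLIN2 and PLIN3 cover the droplet and limit the access of lipases.

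Depth was 23555205 to 28615770 counts per sample. CPT1A was 265 and 262 CPM in NT, 81.2, 86.4 and 86.2 CPM in KD, 326 and 318 CPM in EV and 870, 914 and 861 CPM in OE, where CPM is the counts of a gene relative to the library total after TMM scaling. The library KD 2 stood apart from its group, with counts that differed from those of KD 1 and KD 3 by a chi-square of 6.70 and 6.93 per degree of freedom, against 2.29 between KD 1 and KD 3. OE 2 stood apart to a lesser degree, with 3.81 and 4.38 against OE 1 and OE 3 and 2.15 between those. All 9 prostate luminal markers were expressed, and their summed level was 6356 to 6636 CPM in NT, 9138 to 9993 CPM in KD, 8726 to 9157 CPM in EV and 12197 to 12663 CPM in OE. Of 6 adipocyte markers 5 stayed at or under 3 counts in every library, with ADIPOQ at 0, and the summed level was 0.189 to 0.278 CPM in NT, 0.575 to 0.710 CPM in KD, 0.365 to 0.546 CPM in EV and 0.479 to 0.634 CPM in OE. The other marker was the perilipin PLIN1, which made up most of that sum. PLIN1 had 4 and 6 counts in NT, 13, 17 and 19 in KD, 13 and 8 in EV and 11, 13 and 15 in OE. Of 5 fibroblast markers 3 stayed at or under 3 counts, and the sum was 10.2 to 11.8 CPM in NT, 17.1 to 18.2 CPM in KD, 10.2 to 11.4 CPM in EV and 13.4 to 15.8 CPM in OE. Of 5 white blood cell markers 3 stayed at or under 3 counts, and the sum was 0.0453 to 0.377 CPM over all libraries. The part of these differences between groups in the results was not tested.

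Promoter sequences from RefSeq on GRCh38.p14, from 250 bases before to 50 bases after the start site, were at hand for 6 of the 10 genes. The first 2 shown belong to genes that were higher in both arms, PNPLA2 at chr11:818664-818963 on the plus strand and PLIN3 at chr19:4867618-4867917 on the minus strand. The third belongs to PLIN2, which was close to undetected, at chr9:19127443-19127742 on the minus strand. Each is written 5′ to 3′ in the direction of the gene, and capitals mark a match on either strand to one of 7 motifs.
PNPLA2: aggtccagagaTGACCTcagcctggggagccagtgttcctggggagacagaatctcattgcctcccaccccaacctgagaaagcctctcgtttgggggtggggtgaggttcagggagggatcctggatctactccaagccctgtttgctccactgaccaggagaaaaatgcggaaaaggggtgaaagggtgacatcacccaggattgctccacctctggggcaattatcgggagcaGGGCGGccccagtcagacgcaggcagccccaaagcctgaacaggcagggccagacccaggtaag
PLIN3: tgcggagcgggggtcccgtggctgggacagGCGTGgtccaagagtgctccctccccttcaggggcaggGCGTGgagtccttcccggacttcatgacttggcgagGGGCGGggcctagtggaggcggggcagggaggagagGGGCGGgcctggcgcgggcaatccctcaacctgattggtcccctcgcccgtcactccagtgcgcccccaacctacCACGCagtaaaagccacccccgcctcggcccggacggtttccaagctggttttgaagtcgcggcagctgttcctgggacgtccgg
PLIN2: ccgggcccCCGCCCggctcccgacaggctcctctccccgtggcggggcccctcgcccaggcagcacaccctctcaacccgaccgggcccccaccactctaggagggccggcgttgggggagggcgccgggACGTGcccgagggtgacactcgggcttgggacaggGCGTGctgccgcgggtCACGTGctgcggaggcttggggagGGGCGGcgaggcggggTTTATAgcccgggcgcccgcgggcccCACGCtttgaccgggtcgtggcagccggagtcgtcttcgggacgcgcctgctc

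The motifs searched were the HIF core (ACGTG or GCGTG), the E-box CACGTG, the forkhead motif GTAAACA, the ATF4 and CEBP composite TGATGNAA, the nuclear receptor motif AGGTCA, the SP1 motif GGGCGG and the TATA box TATAAA, and every E-box also holds a HIF core. PNPLA2 had the nuclear receptor motif at -239 and the SP1 motif at -14 from the start site. PLIN3 had a HIF core at -220, -182 and -35 and an SP1 motif at -146 and -110. PLIN2 had a HIF core at -120, -85, -69, -68 and -3, an E-box at -69, an SP1 motif at -242 and -45 and a TATA box at -29. The HIF cores at -69 and -68 both lie within the E-box, which reads alike on either strand. Of 35116 promoters of this length 48.45% held the HIF core, 44.95% the SP1 motif, 13.83% the nuclear receptor motif, 11.53% the TATA box and 7.256% the E-box. The forkhead motif and the ATF4 and CEBP composite, in 3.423% and 3.617% of promoters, had no match in these 3 windows. A match is a string of letters, not a site shown to be bound.

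Levels of different genes were compared as CPM per kilobase of the gene's exons in GENCODE v44. PNPLA2 was the most abundant of the 10, with a mean of 32.9 CPM per kilobase over the 10 samples, followed by PLIN3 with 24.9 CPM per kilobase. DGAT1 followed with 10.7, HILPDA with 5.61, DGAT2 with 4.75, MGLL with 3.49 and ABHD5 with 3.34 CPM per kilobase. The order of the genes after PLIN3 depended on the length used, since with the length of the canonical transcript DGAT2 came to 15.6 and DGAT1 to 12.1 CPM per kilobase, MGLL to 9.23, HILPDA to 8.52 and ABHD5 to 4.76. The 3 filtered genes lay far below on either length, with PLIN2 at 0.0374, LIPE at 0.0177 and G0S2 at 0.0052 CPM per kilobase of exons.

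**Figure D1:**
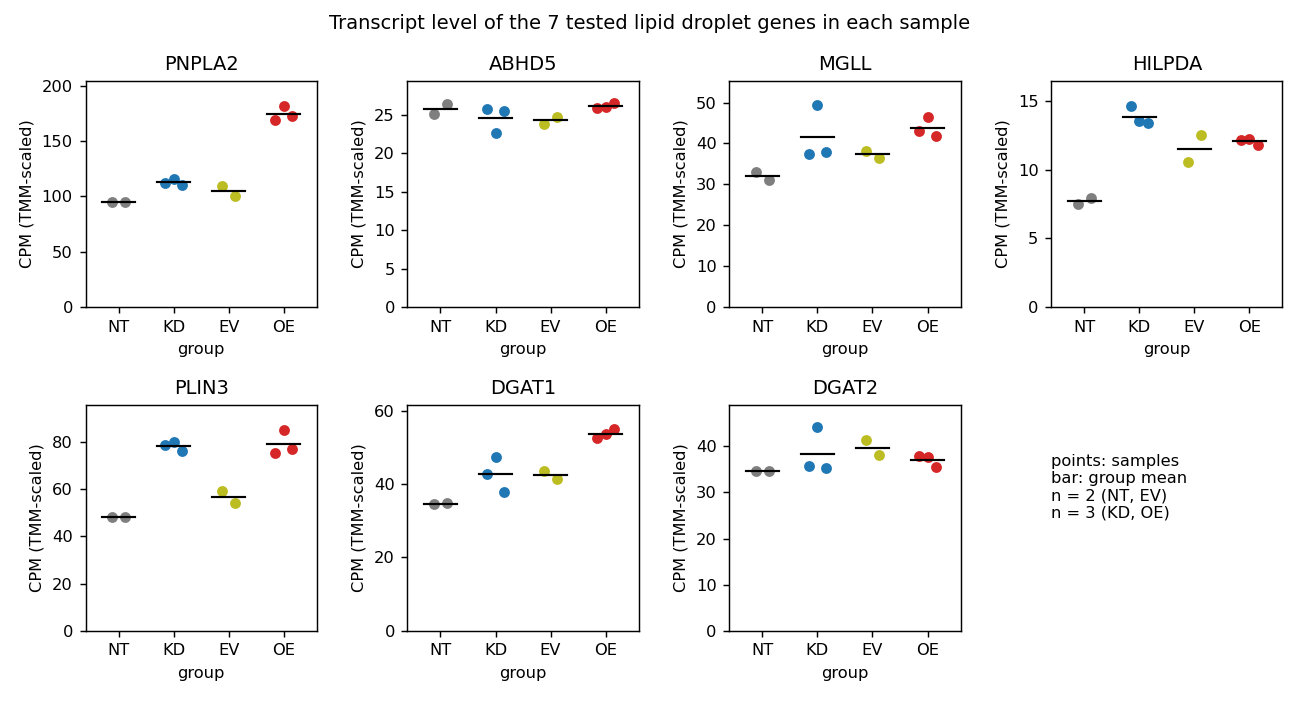
CPM after TMM scaling (y axis, from 0) of the 7 tested genes in each sample of NT, KD, EV and OE (x axis); points are samples and bars are group means. PNPLA2 reached 169 to 181 CPM in OE and at most 116 CPM elsewhere, and HILPDA was lower in both NT samples than in any other sample.

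PNPLA2 carries out the first cut of stored triglyceride, and it was higher in OE than in any other group. Its level was 95.4 CPM in both NT samples and 112, 116 and 110 CPM in KD. It was 109 and 101 CPM in EV and 169, 181 and 173 CPM in OE. The groups of each arm did not overlap, and the KD samples were also above both EV samples. OE was 1.66-fold above EV (log2 fold change 0.73, SE 0.05, adjusted p = 4.8e-11, edgeR quasi-likelihood test with Benjamini-Hochberg adjustment over all tested genes). KD was also above NT, by 1.18-fold (log2 fold change 0.24, SE 0.05, edgeR adjusted p = 0.00027). KD and OE were thus both above the control of their own arm.

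The interaction, which is the log2 fold change of OE from EV minus that of KD from NT, was 0.49 for PNPLA2 (SE 0.07, 95% interval 0.34 to 0.64, edgeR adjusted p = 5.07e-06). PNPLA2 was among the genes the study displayed for this interaction in the same samples, so its direction there is not independent evidence. In EV the level of PNPLA2 was 1.10-fold that in NT (log2 fold change 0.14, edgeR adjusted p = 0.0593). With 1 sample left out this log2 fold change was 0.0683 (without EV 1) to 0.197 (without EV 2), and it was called without KD 2, EV 2 or OE 2. The 3 genes with the profile most like that of PNPLA2 over the 10 samples, among 12717 genes with an average log2 CPM of at least 1, were ALDH3B2, FKBP8 and EVI5L, each with a Pearson r of 0.997. These values are descriptions, since the samples fall into 4 groups and share libraries and scaling.

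ABHD5, the activator of PNPLA2, was nearly level across the study. It was 25.1 and 26.4 CPM in NT, 25.7, 22.6 and 25.4 CPM in KD, 23.8 and 24.7 CPM in EV and 25.8, 25.98 and 26.5 CPM in OE. NT and KD overlapped, and the OE samples were all above the EV samples by a small margin. The 95% interval of its log2 fold change was -0.21 to 0.09 in KD against NT and -0.04 to 0.26 in OE against EV, with edgeR adjusted p of 0.478 and 0.228. The interaction for ABHD5 was 0.17, with an interval of -0.04 to 0.38 (edgeR adjusted p = 0.188). Exons of ABHD5 share 170 bases with ANO10 on the opposite strand, which had 711 to 843 counts.

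The balance of lipase to activator was set out as the ratio of PNPLA2 to ABHD5 counts within each library, which does not depend on scaling between libraries. The ratio was 3.81 and 3.62 in NT and 4.36, 5.12 and 4.33 in KD. It was 4.58 and 4.08 in EV and 6.53, 6.98 and 6.53 in OE. The OE samples stood above all others, while the KD and EV ranges overlapped. The mean ratio was 6.68 ± 0.261 (SD, n = 3) in OE and 4.33 ± 0.353 (SD, n = 2) in EV.

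HILPDA, a protein induced by hypoxia and by fatty acids that inhibits PNPLA2, moved in the knockdown arm. It was 7.47 and 7.94 CPM in NT and 14.6, 13.5 and 13.4 CPM in KD, with no overlap. It was 10.5 and 12.5 CPM in EV and 12.2, 12.3 and 11.8 CPM in OE, where the OE samples lay between the EV samples. KD was 1.80-fold above NT (log2 fold change 0.84, SE 0.10, edgeR adjusted p = 1.22e-07), the largest change of the 7 genes in that comparison. In OE against EV the log2 fold change was 0.07, with an interval of -0.13 to 0.27 (edgeR adjusted p = 0.585).

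The interaction for HILPDA was -0.78 (SE 0.14, edgeR adjusted p = 7.47e-05), of the opposite sign to that of PNPLA2. The controls differed as well, and EV was 1.49-fold above NT (log2 fold change 0.58, SE 0.11, edgeR adjusted p = 0.000284). The ratio of PNPLA2 to HILPDA counts was 12.8 and 12.005 in NT and 7.68, 8.57 and 8.23 in KD, so every KD sample was below both NT samples. In the other arm the ratio was 10.4 and 8.06 in EV and 13.9, 14.8 and 14.7 in OE, so every OE sample was above both EV samples.

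**Figure D2:**
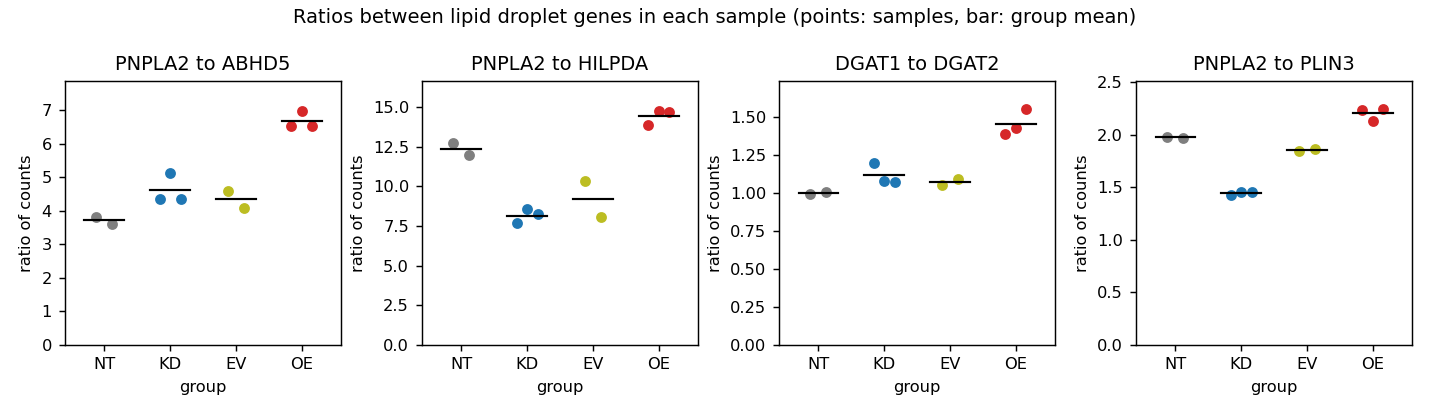
Ratio of counts between 2 genes of the same library (y axis, from 0) in each sample of NT, KD, EV and OE (x axis); points are samples and bars are group means. The ratio of PNPLA2 to HILPDA averaged 12.4 in NT and 8.16 in KD, and 9.22 in EV and 14.5 in OE, and the ratio of DGAT1 to DGAT2 was highest in OE at 1.45.

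G0S2, the other inhibitor of PNPLA2, had 0 counts in 9 of the 10 libraries and 1 count in OE 2. A count of 0 allows up to 3 counts, or 0.0995 to 0.122 CPM in those 9 libraries, by counting error alone. LIPE, which cuts diacylglycerol in fat and steroid-making cells, had 4 and 2 counts in NT, 1, 4 and 1 in KD, 3 and 1 in EV and 0, 4 and 3 in OE. The groups overlapped for LIPE, and a difference was not detectable at this depth. Exons of LIPE share 500 bases with the antisense gene LIPE-AS1, which had 46 to 84 counts, and whether reads were counted by strand is not given in the sources used here.

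MGLL releases the last fatty acid from monoacylglycerol. It was 32.9 and 31.1 CPM in NT and 37.3, 49.3 and 37.8 CPM in KD, and 38.2 and 36.4 CPM in EV and 43.0, 46.4 and 41.7 CPM in OE. In both arms the altered samples were all above their controls, and KD 2 was the highest of the 10. The log2 fold change of KD from NT was 0.37 (SE 0.09, edgeR adjusted p = 0.00103), and without KD 2 it was 0.23 (edgeR adjusted p = 0.00295). In OE against EV it was 0.23 (SE 0.09, edgeR adjusted p = 0.0357). This call was lost when EV 1, EV 2, OE 1 or OE 2 was left out, with an adjusted p of up to 0.197, and with scaling by library size alone (log2 fold change 0.13, edgeR adjusted p = 0.228). The interaction for MGLL was -0.15, with an interval of -0.41 to 0.11, and without KD 2 it was -0.0061. For MGLL, EV was 0.22 above NT on the log2 scale (SE 0.10, edgeR adjusted p = 0.0889), which did not pass the threshold.

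Among the coats, PLIN3 (TIP47), which moves from the cytosol to young droplets, was higher in both arms. It was 48.2 and 48.4 CPM in NT and 78.6, 79.8 and 76.1 CPM in KD. It was 59.1 and 54.2 CPM in EV and 75.4, 85.2 and 77.2 CPM in OE. Neither arm overlapped, and the KD and OE ranges did overlap each other. KD was 1.62-fold above NT (log2 fold change 0.69, SE 0.06, edgeR adjusted p = 5.73e-10) and OE was 1.40-fold above EV (log2 fold change 0.48, SE 0.06, edgeR adjusted p = 3.49e-07).

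The interaction for PLIN3 was -0.21 (SE 0.08, edgeR adjusted p = 0.0447), close to the threshold. It was not called with DESeq2 size factors (edgeR adjusted p = 0.0521) or when 1 of NT 1, NT 2, KD 1, EV 1, OE 1 and OE 3 was left out. Without EV 1 it was -0.13, with an edgeR adjusted p of 0.331. EV was itself above NT for PLIN3, with a log2 fold change of 0.23 (SE 0.07, edgeR adjusted p = 0.00893), a call lost without NT 1, NT 2 or EV 1. The ratio of PNPLA2 to PLIN3 counts, of lipase to coat, was 1.97 ± 0.00706 in NT (SD, n = 2), 1.44 ± 0.0155 in KD (SD, n = 3), 1.85 ± 0.00732 in EV (SD, n = 2) and 2.20 ± 0.0642 in OE (SD, n = 3), so it was lower in KD and higher in OE than in the control of each arm.

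PLIN2 (adipophilin), the coat protein most used as a droplet marker outside fat, was close to undetected in the table. It had 3 and 4 counts in NT, 3, 5 and 1 in KD, 1 and 6 in EV and 12, 5 and 7 in OE. OE 1 was the highest library and the OE and EV ranges overlapped, since OE 2 had 5 counts and EV 2 had 6. With no expression filter the edgeR adjusted p of OE against EV was 0.232 for PLIN2. The nearest genes listed had ordinary counts, with 437 to 1565 for HAUS6 at 5471 bases and 2047 to 2695 for RRAGA at 57350 bases. Whether the row of PLIN2 holds all reads of the gene was not tested. The counts of PLIN2 and its place among the 10 genes hold for this table only.

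**Figure D3:**
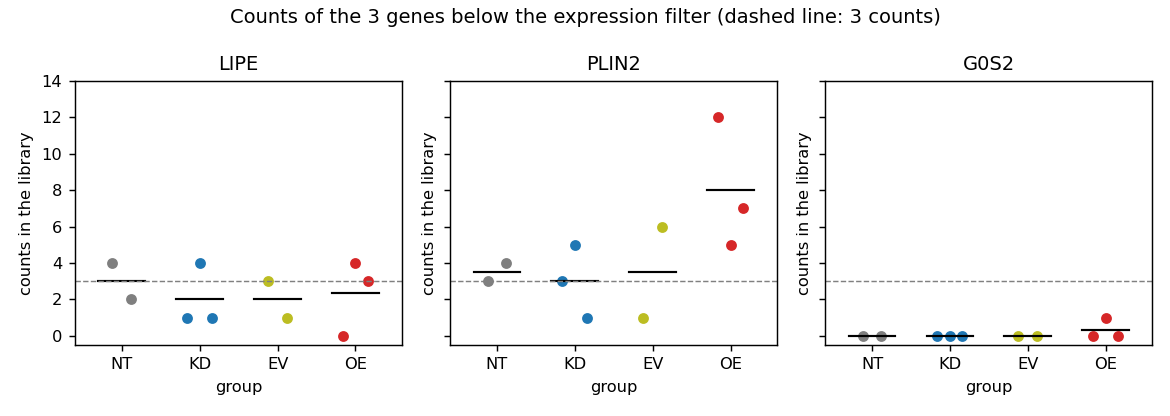
Counts (y axis) of LIPE, PLIN2 and G0S2 in each library of NT, KD, EV and OE (x axis); points are libraries, bars are group means and the dashed line marks 3 counts. The highest count was 4 for LIPE, 12 for PLIN2 and 1 for G0S2.

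DGAT1 and DGAT2 make triglyceride from the same substrates but are unrelated in sequence, DGAT1 lying in the endoplasmic reticulum and DGAT2 also reaching droplets. DGAT1 was 34.6 and 34.8 CPM in NT, 42.7, 47.5 and 37.8 CPM in KD, 43.5 and 41.5 CPM in EV and 52.5, 53.7 and 55.0 CPM in OE. Every KD sample was above both NT samples and every OE sample above all others. The log2 fold change was 0.30 in KD against NT (SE 0.07, edgeR adjusted p = 0.00133) and 0.34 in OE against EV (SE 0.07, edgeR adjusted p = 0.000345). The interaction for DGAT1 was 0.04, with an interval of -0.17 to 0.25. EV was above NT by nearly as much, 0.29 on the log2 scale (SE 0.08, edgeR adjusted p = 0.00627), a call lost without EV 1 (adjusted p = 0.0881). Exons of DGAT1 share 137 bases with HSF1 on the opposite strand, which had 3082 to 5364 counts.

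DGAT2 passed the threshold in neither arm. It was 34.7 CPM in both NT samples, 35.7, 44.1 and 35.3 CPM in KD, 41.3 and 38.2 CPM in EV and 37.9, 37.7 and 35.5 CPM in OE. The KD samples were above NT, by little in KD 1 and KD 3, and the OE samples were below EV. The log2 fold change was 0.14 in KD against NT (interval -0.02 to 0.31, edgeR adjusted p = 0.127) and -0.10 in OE against EV (interval -0.26 to 0.06, edgeR adjusted p = 0.289). With scaling by library size alone the latter was -0.20 (edgeR adjusted p = 0.0317). The log2 fold change of DGAT2 in KD from NT was 0.0342 without KD 2 (edgeR adjusted p = 0.679) and 0.20 without KD 3 (edgeR adjusted p = 0.0426). The interaction for DGAT2 was -0.24, with an interval of -0.48 to -0.01 (edgeR adjusted p = 0.0783). With 1 sample left out the interaction was -0.30 to -0.14. EV was 0.20 above NT for DGAT2 on the log2 scale (edgeR adjusted p = 0.0852).

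The ratio of DGAT1 to DGAT2 counts put the pair side by side within a library. It was 0.995 and 1.00 in NT, 1.195, 1.08 and 1.07 in KD, 1.05 and 1.09 in EV and 1.39, 1.42 and 1.55 in OE. The OE samples were above all others, and the KD and EV ranges overlapped.

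Counted together, 5 of the 7 tested genes were higher in KD than in NT (PNPLA2, MGLL, HILPDA, PLIN3 and DGAT1) and 0 were lower, where 29.1% of all tested genes were higher and 28.4% lower. In OE against EV 4 were higher (PNPLA2, MGLL, PLIN3 and DGAT1) and 0 lower, beside 25.6% and 26.4% of all tested genes. In the interaction 1 was higher (PNPLA2) and 2 were lower (HILPDA and PLIN3), beside 20.3% and 24%. In EV against NT, the comparison of the 2 controls, 3 were higher (HILPDA, PLIN3 and DGAT1) and 0 lower, beside 18.5% and 15.5%. The median log2 fold change of the 7 was 0.30, 0.23, -0.15 and 0.22 in these 4 comparisons, and that of all tested genes was -0.0196, -0.0198, -0.0172 and -0.0042. At an unadjusted p under 0.05 edgeR also found 0 of the 7 lower in KD against NT, OE against EV and EV against NT, and so did the DESeq2 Wald test at an adjusted p under 0.05. With scaling by library size alone, which moved the median of all genes in OE against EV to -0.12, 3 were higher and 1 (DGAT2) was lower there. That scaling called 53.4% of all tested genes in OE against EV in either direction. The interaction and EV against NT reuse the control samples of both arms, so these counts are not independent of each other.

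At the adjusted p of 0.0001 used by the study as its limit, 2 of the 7 were called in KD against NT (HILPDA and PLIN3), where 29.1% of all tested genes were called in either direction. In OE against EV 2 were called (PNPLA2 and PLIN3), beside 21.9%, and in the interaction 2 (PNPLA2 and HILPDA), beside 15.9%. In EV against NT 0 were called by edgeR at this limit, beside 8.16%. There 6 of the 7 had an unadjusted p under 0.05, as did 42.9% of all tested genes. The DESeq2 Wald test at the limit of 0.0001 called 3 of the 7 in KD against NT and 3 in OE against EV, all higher. It called 1 higher and 1 lower in the interaction and 0 in EV against NT. The share of all tested genes was not computed for that test at this limit, so its counts cannot be set against a background.

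**Figure D4:**
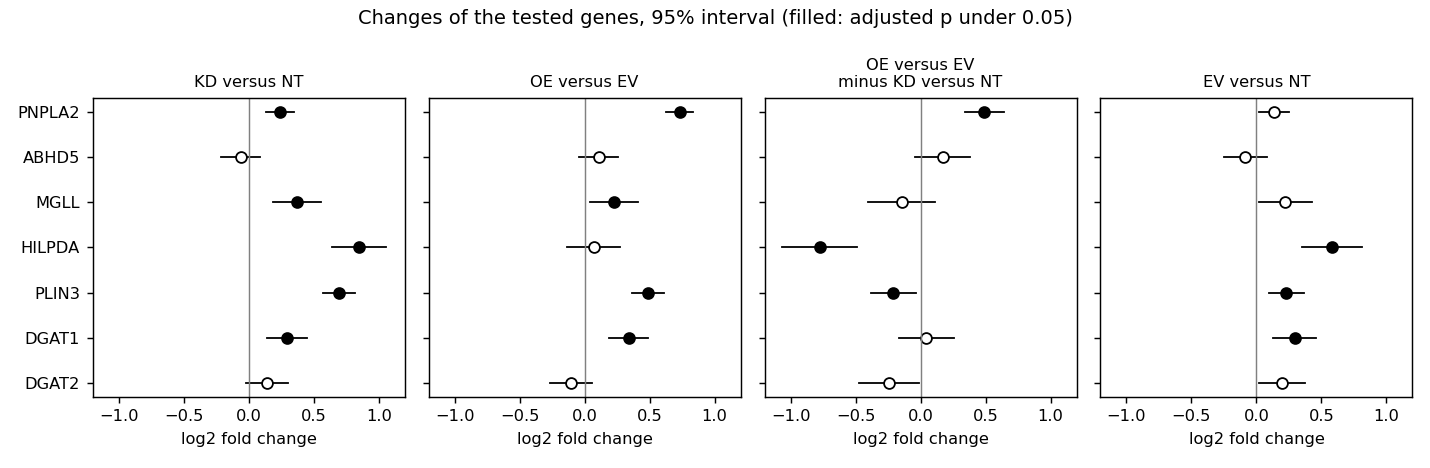
Log2 fold change (x axis) of the 7 tested genes (y axis) in 4 comparisons, with 95% intervals from the edgeR fit; filled points have an adjusted p under 0.05. PNPLA2 lies to the right in both arms and in the interaction at 0.49, while HILPDA lies at 0.84 in KD against NT and 0.07 in OE against EV.

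Around these 10 genes, a wider list of 49 droplet coat, glycerolipid synthesis, neutral lipid hydrolase and sterol ester genes, of which 36 were tested, was split in direction. In KD against NT 19 were higher and 7 lower, in OE against EV 16 and 8, in the interaction 6 and 13, and in EV against NT 13 and 4. The shares of all tested genes in the same order were 29.1% higher and 28.4% lower, 25.6% and 26.4%, 20.3% and 24%, and 18.5% and 15.5%. The median log2 fold change was 0.22, 0.12, -0.19 and 0.13. With scaling by library size alone the split in OE against EV was 9 higher and 10 lower. That scaling called 53.4% of all tested genes there in either direction.

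Among the 12 tested genes of droplet coat, growth and fusion, 6 were higher and 4 lower in KD, where 29.1% of all tested genes were higher and 28.4% lower, and 6 were higher and 3 lower in OE, where 25.6% and 26.4% were. PLIN4, another perilipin, fell in both arms, from 11.3 and 12.2 CPM in NT to 4.21, 7.10 and 6.37 CPM in KD and from 16.5 and 16.1 CPM in EV to 7.78, 7.29 and 6.96 CPM in OE (log2 fold change -0.99 and -1.15, edgeR adjusted p = 9.1e-07 and 7.12e-08), opposite to PLIN3. SPART (spartin), which takes part in droplet turnover, also fell in both, by 0.96 on the log2 scale in KD and by 2.10 in OE (edgeR adjusted p = 1.58e-09 and 1.98e-14). METTL7A, a droplet-associated methyltransferase family member, rose by 1.59 and 0.84 (edgeR adjusted p = 1.56e-16 and 6.48e-11). PLIN1, a perilipin with few counts, rose by 1.61 in KD (edgeR adjusted p = 0.00428). In OE against EV the log2 fold change of PLIN1 was 0.35 (edgeR adjusted p = 0.487). BSCL2 (seipin), which shapes new droplets, rose in OE, from 8.11 and 7.87 CPM in EV to 14.6, 17.2 and 14.4 CPM (log2 fold change 0.94, edgeR adjusted p = 1.49e-07), and its interaction was 0.86 (edgeR adjusted p = 9.92e-05).

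Of the 12 tested genes of glycerolipid synthesis ahead of the DGAT step, 5 were higher and 2 lower in KD (29.1% and 28.4% of all tested genes) and 4 were higher and 2 lower in OE (25.6% and 26.4%). LPIN1, a phosphatidate phosphatase that makes diacylglycerol, rose by 0.77 on the log2 scale in KD and by 0.20 in OE (edgeR adjusted p = 3.55e-11 and 0.0048), the latter not called with scaling by library size alone (0.10, edgeR adjusted p = 0.154). AGPAT2, an acyltransferase of the step before, fell by 0.61 in KD (edgeR adjusted p = 1.72e-07) and was 0.05 in OE against EV, or -0.05 with scaling by library size alone. GPAM, which attaches the first fatty acid to glycerol phosphate, fell by 0.63 in OE (edgeR adjusted p = 1.06e-08) and was -0.10 in KD against NT. SOAT1, which makes sterol esters and was the 1 tested gene of its pair, rose by 1.27 in KD and fell by 0.87 in OE (edgeR adjusted p = 1.14e-12 and 7.57e-10), and was 1.51 above NT in EV on the same log2 scale.

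Of the 11 other tested neutral lipid hydrolases, 7 were higher and 1 lower in KD, beside 29.1% and 28.4% of all tested genes, and 6 were higher and 2 lower in OE, beside 25.6% and 26.4%. LPL, which releases fatty acids from lipoproteins outside the cell, was 4.68 and 5.68 CPM in NT, 7.55, 9.74 and 8.39 CPM in KD, 7.10 and 8.97 CPM in EV and 23.2, 19.9 and 21.5 CPM in OE. Like PNPLA2 it was highest in the OE samples, with a log2 fold change of 1.42 in OE and 0.73 in KD (edgeR adjusted p = 7.78e-10 and 7.24e-05) and an interaction of 0.70 (edgeR adjusted p = 0.00311). LPL in EV was also 0.63 above NT (edgeR adjusted p = 0.00205). PNPLA4 fell by 0.48 in KD and rose by 0.36 in OE (edgeR adjusted p = 2.51e-05 and 0.000633). DDHD2, a triglyceride hydrolase of the brain, fell by 0.28 in OE (edgeR adjusted p = 0.000223).

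**Figure D5:**
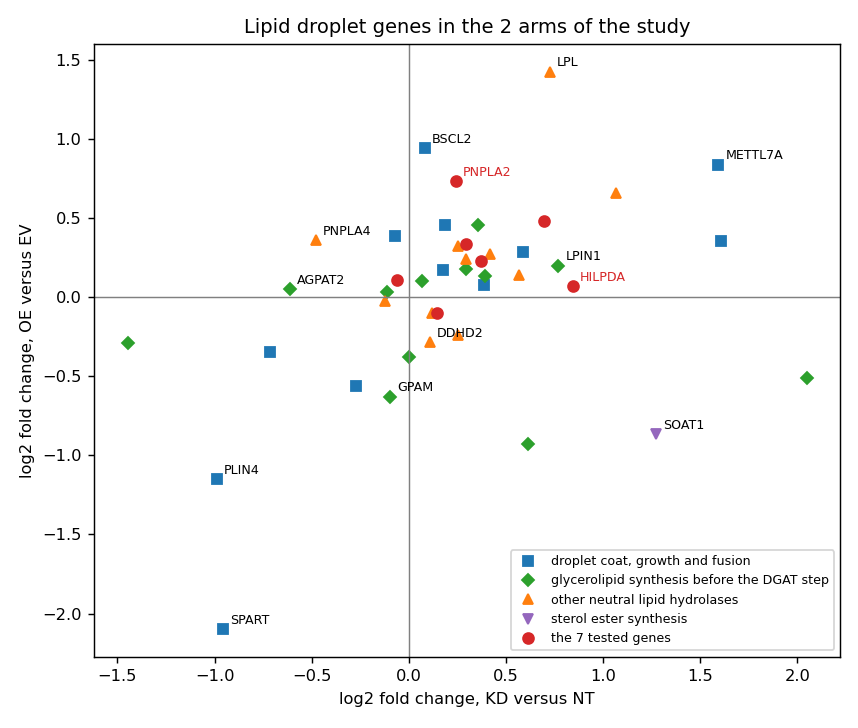
Log2 fold change of OE from EV (y axis) against that of KD from NT (x axis). Circles are the 7 tested genes and other symbols are the 36 tested genes of the wider list by group. Labels mark PNPLA2, HILPDA and the genes of the wider list picked by the stated rule. PLIN4 and SPART lie at lower left, METTL7A and LPL at upper right and SOAT1 at lower right; the unlabelled points farthest out at -1.45 and 2.05 in KD are GPAT3 and MOGAT2, which had few counts.

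Of 12 tested genes that carry hormone and kinase signals to the lipases, 5 were higher and 6 lower in KD, against 29.1% and 28.4% of all tested genes, and 2 were higher and 6 lower in OE, against 25.6% and 26.4%. ADRB1, a beta-adrenergic receptor, rose by 0.71 in KD and fell by 1.54 in OE on the log2 scale (edgeR adjusted p = 0.00506 and 8.67e-07). For ADRB1 the controls differed as well, with EV 1.22 above NT (edgeR adjusted p = 9.49e-05). Its group means were 2.26 CPM in NT, 3.69 CPM in KD, 5.26 CPM in EV and 1.81 CPM in OE. PDE3B, which breaks down cyclic AMP, rose by 1.04 in KD (edgeR adjusted p = 6.82e-10) and was 0.07 in OE against EV, or -0.03 with scaling by library size alone. PRKAR2A, a regulatory subunit of protein kinase A, rose by 0.56 in KD (edgeR adjusted p = 3.5e-09) and was 0.10 in OE against EV. In EV it was 0.44 above NT (edgeR adjusted p = 2.88e-06).

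PPAR target genes, a group that fatty acids released by PNPLA2 are known to induce, had 6 higher and 3 lower of 12 tested in KD and 7 higher and 0 lower in OE by edgeR, CPT1A itself included. CPT1A was the gene altered, so its place among the lower in KD and the higher in OE was fixed by the design. Of all tested genes 29.1% were higher and 28.4% lower in KD, and 25.6% and 26.4% in OE. In OE 0 were lower at an unadjusted p under 0.05 or by the DESeq2 Wald test. With scaling by library size alone the split in OE was 5 higher and 2 lower. That scaling called 53.4% of all tested genes in OE against EV in either direction. FGF21 fell by 2.01 in KD and rose by 0.71 in OE (edgeR adjusted p = 2.53e-08 and 0.00153). ACSL1, which activates fatty acids with coenzyme A, rose by 0.71 in KD and 0.15 in OE (edgeR adjusted p = 1.8e-11 and 0.0118), the latter not called with scaling by library size alone (adjusted p = 0.281). In EV it was 0.45 above NT (edgeR adjusted p = 7.85e-07).

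Of 10 tested hypoxia-induced genes, the group HILPDA belongs to by its known induction, 4 were higher and 4 lower in KD and 8 were higher and 0 lower in OE by edgeR, while 29.1% and 28.4% of all tested genes were higher and lower in KD and 25.6% and 26.4% in OE. In OE 0 were lower at an unadjusted p under 0.05 or by the DESeq2 Wald test. With scaling by library size alone the split in OE was 6 higher and 2 lower. That scaling called 53.4% of all tested genes in OE against EV in either direction. VEGFA, a growth factor for vessels, fell by 1.86 in KD and rose by 0.47 in OE (edgeR adjusted p = 5.62e-18 and 3.61e-07), with an interaction of 2.33, whereas HILPDA rose in KD and had an interaction of -0.78. BNIP3, a mitophagy receptor, fell by 0.27 in KD and rose by 0.17 in OE (edgeR adjusted p = 8.38e-05 and 0.00856), the latter not called with scaling by library size alone (adjusted p = 0.275). NDRG1 rose by 0.44 in KD and 0.79 in OE (edgeR adjusted p = 4.34e-08 and 5.28e-12).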

How the data were processed

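RNA was sequenced as read pairs. The authors trimmed them with BBDuk, aligned and quantified them with STAR 2.6.0a against the Ensembl hg38.p12 transcriptome, and deposited whole-number counts per gene symbol for 10 samples. Strandedness and the treatment of reads shared between genes are not given in the sources used here, so overlapping genes and paralogs may share counts. Exons of PNPLA2, PLIN3, HILPDA, DGAT1 and DGAT2 overlap noncoding genes whose counts were not found under the names used. Groups and replicate numbers came from the sample labels.

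The counts were filtered with filterByExpr, scaled with TMM and tested in R 4.3.3 with the edgeR 4.0.16 quasi-likelihood F test, with 1 mean per group over all 10 samples. Adjustment was by Benjamini-Hochberg over 17230 genes, separately in each of 4 comparisons, and a gene passed at an adjusted p below 0.05 (by the study's own limit, 0.0001). The study used limma. Standard errors are the log2 fold change over the root of F. The procedure was tested on simulated data. SD are between samples of a group.

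The 10 genes and the 7 wider lists were chosen with earlier results of these data known. Of each wider list, the text names the genes with the 3 smallest interaction p-values and called genes with an average log2 CPM over 1 whose log2 change in an arm reached 1. Counts of matched letters in promoters were made on RefSeq windows. GENCODE v44 gave gene lengths, overlaps and neighbours. Alternatives were DESeq2 1.42.0, limma-voom (limma 3.58.1), other scalings, filters and limits, a replicate block, the groups of a comparison fitted alone and each sample left out, where the lone sample of a control was assumed to vary like the other groups. Lengths of canonical transcripts were tried after the data were seen. CPT1A and the 10 genes are named throughout, and GPAT3, MOGAT2 and PLIN1 were named after their values were seen.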

Additional observations from a re-analysis of the deposited data

How the results depend on the processing

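Of the log2 fold changes of the 7 tested genes under alternatives that kept all samples, 221 kept their direction and their side of the threshold, 9 came past it, 13 fell short of it and 2 changed sign. With each sample left out in turn the numbers were 257, 7, 14 and 2. The first set includes the main fit read at an adjusted p under 0.0001, which can only take calls away. That limit left 2, 2, 2 and 0 of the 5, 4, 3 and 3 calls in the 4 comparisons. With scaling by library size alone HILPDA in OE against EV was -0.0301 and DGAT1 in the interaction was -0.0907. Leaving out 1 sample gave -0.0365 to 0.197 for HILPDA in OE against EV, the lowest without EV 1, and -0.0327 to 0.125 for DGAT1 in the interaction, the lowest without KD 3. Neither was called under any of these.

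At an adjusted p under 0.0001 the 7 genes had 2 calls in KD against NT, 2 in OE against EV and 0 in EV against NT, and the wider list had 15 in KD against NT, 11 in OE against EV, 8 in the interaction and 3 in EV against NT, since the limit is stricter. Over all tested genes it left 5022, 3778, 2744 and 1406 calls. In EV against NT, with 2 samples each, the 7 genes had 6 calls when the 2 groups were fitted alone, a fit that called 43.4% of all tested genes. Leaving out 1 sample gave 1 to 6 calls there, 1 without EV 1 and 6 without KD 2 (21.5% and 38.8% of all tested genes), and 11 to 19 in the wider list. The cause was not tested.

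The PLIN3 interaction was not called with no expression filter (adjusted p 0.0773) or by the DESeq2 Wald test (0.0812). With the replicate block the 7 genes had 6 calls in KD against NT, 4 in OE against EV, 3 in the interaction and 4 in EV against NT, beside 57.6%, 52.8%, 45.8% and 35.6% of all tested genes. DGAT2 in KD against NT was then called, at 0.19 (edgeR adjusted p = 0.0374). Same-numbered samples did not deviate together, with a mean correlation of -0.003 over 13 pairs, and 2 of 10 samples correlated best with their own number, so the numbers were not taken to pair samples.

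The 2 samples of each control limit the precision of all comparisons, and LIPE, PLIN2 and G0S2 had too few counts in the table to pass the expression filter.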
